A study of Mus musculus with 6 samples.

Results

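Most of the genes described here encode the proteins of the cytosolic ribosome. They were taken by symbol: Rpl or Rps followed by a digit, plus Rplp0, Rplp1, Rplp2 and Rpsa, leaving out pseudogene symbols with -ps and the S6 kinases whose symbols start with Rps6k. The rule found 91 of 15443 gene symbols. Of these, 46 encode proteins of the large (60S) subunit and 31 proteins of the small (40S) subunit. The other 14 are paralogs, retrogenes or namesakes, such as Rps27l, Rpl22l1 and Rps19bp1, the last of which encodes a protein that binds RPS19 and is not part of the mature ribosome. Some of the 14 are annotated as pseudogenes although their symbols lack -ps, among them Rpl6l, Rps4l, Rps3a2 and Rps3a3. The rule left out 115 symbols with -ps and 8 Rps6k symbols. A mean normalized count of at least 5 over the 6 libraries was reached by 89 of the 91, and the other 2, Rps3a2 and Rps3a3, were not tested.

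RNA came from bone marrow cells of wild-type (WT) C57BL/6J mice, all kept for 3 days with FLT3LG at 50 ng/ml, the cytokine that drives dendritic cell growth from progenitors. In 3 libraries recombinant human midkine, a heparin-binding growth factor, was present at 10 ng/ml throughout (midkine 3, 4 and 5), and 3 libraries had FLT3LG alone (control 1, 2 and 4). Whether the replicates are different mice, different cultures or repeats of a culture is not stated, and the p-values reflect the spread of these libraries alone, part of which may be technical. The cultures were unsorted mixtures, and fewer cells of a type and less RNA per cell cannot be told apart in them.

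A library held 5985684 to 7233960 reads, each from near the 3′ end of a poly(A) transcript. Midkine 5 stood apart from the other 5 libraries: its correlation with them was 0.92 to 0.94 over log2 values of all genes tested, against 0.97 to 0.99 among the others. Results that include it are therefore given with and without it. Mitochondrial ribosomal RNA (mt-Rnr1 and mt-Rnr2) held 4.12%, 4.69% and 0.377% of reads in midkine 3, 4 and 5, against 4.91%, 6.16% and 5.67% in control 1, 2 and 4. Gm42418, a gene model that overlaps a nuclear rRNA repeat, held 3.55%, 4.52% and 1.49% of reads in midkine 3, 4 and 5, against 5.36%, 6.54% and 8.12% in the controls. Both were lowest in midkine 5, and both lay below every control in midkine 3 and 4 too. Leaving out midkine 5 therefore does not remove this difference between the groups. The labels give RNA integrity only as a range over samples. The part of RNA quality in the results below was not tested.

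The ribosome joins a small subunit, which reads the mRNA codons, to a large subunit, which forms the peptide bond. Each protein of the cytosolic ribosome is usually present in a single copy, so cells tend to make these proteins in balanced amounts, and surplus copies are degraded. The mRNAs are among the most abundant in growing cells. Most start with a C followed by a run of pyrimidines, the 5′ terminal oligopyrimidine (TOP) motif, through which mTORC1 and the binding protein LARP1 control their translation and stability. In blood formation the dose of these proteins matters, since loss of a single copy of any of several of them causes Diamond-Blackfan anaemia in humans.

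A pyrimidine run at the start site, the feature of a TOP mRNA, was looked for in the promoter sequences. RefSeq promoter sequences (GRCm38.p6) were found for 66 of the 91 genes. The 5 sequences here were picked, from genes that have the run, to show it in genes whose RNA behaved differently in these libraries: Rpl27a and Rpl14 were lower in all 3 midkine libraries, Rps6 was lowest in midkine 5, and Rps27 and Rps10 were highest in midkine 5. Each is 60 bases of the gene's strand, 40 before and 20 from the RefSeq start onward, and capitals mark the pyrimidine run at the start. Rpl27a lies at chr7:109519155-109519214 on the plus strand, Rpl14 at chr9:120571477-120571536 on the plus strand, Rps6 at chr4:86857348-86857407 on the minus strand, Rps27 at chr3:90213629-90213688 on the minus strand, and Rps10 at chr17:27635225-27635284 on the minus strand.
Rpl27a: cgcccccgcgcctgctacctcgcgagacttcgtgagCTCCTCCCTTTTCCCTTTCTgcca
Rpl14: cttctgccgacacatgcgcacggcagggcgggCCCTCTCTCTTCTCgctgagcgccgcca
Rps6: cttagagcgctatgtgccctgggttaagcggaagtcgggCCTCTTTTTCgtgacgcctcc
Rps27: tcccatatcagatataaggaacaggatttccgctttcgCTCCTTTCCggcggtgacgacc
Rps10: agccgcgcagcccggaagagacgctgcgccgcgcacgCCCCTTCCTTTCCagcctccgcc

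A run of at least 8 pyrimidines that opens with C, with those 8 bases within the window from 10 bases before to 25 bases after the start, was present in 26 of the 66 promoters (39.4%), against 12.8% of the 9582 tested genes with a promoter sequence. The letters CTTTC on the gene's strand between 10 bases before and 50 after the start occurred in 29 of 66 (43.9%), against 7.56%. CCGGAAG, an ETS family motif searched on both strands over the whole 300 bases, occurred in 26 of 66 (39.4%), against 20.7%. AAGATGGC, a YY1 motif searched in the same way, occurred in 6 of 66 (9.09%), against 5.47%, and TATAAA within 50 bases before the start in 1 of 66 (1.52%), against 1.70%. A match is a description of the letters and not of a bound factor.

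Ribosomal protein mRNAs took 6.16%, 5.48% and 7.87% of all reads in midkine 3, 4 and 5, against 7.12%, 6.62% and 6.54% in control 1, 2 and 4. Midkine 3 and 4 lay below every control and midkine 5 above every control. The means were 6.51% ± 1.23 in midkine and 6.76% ± 0.313 in control libraries (SD, n = 3 each), a difference smaller than the spread of the midkine libraries. Counting error was small beside these differences, since the Wilson 95% interval of midkine 3 ran from 6.14% to 6.18% and that of control 4 from 6.52% to 6.56%. Without midkine 5, the midkine mean was 5.82% against 6.76%.

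Large subunit mRNAs held 2.86%, 2.53% and 3.37% of reads in midkine 3, 4 and 5, against 3.35%, 3.13% and 3.10% in control 1, 2 and 4. Small subunit mRNAs held 3.24%, 2.88% and 4.42% in the midkine libraries, against 3.69%, 3.43% and 3.37% in the controls. Small subunit reads per large subunit read came to 1.13, 1.14 and 1.31 in midkine 3, 4 and 5, against 1.10, 1.10 and 1.09 in the controls. All 3 midkine libraries therefore lay above the 3 controls in this ratio, midkine 5 by far the most.

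**Figure D1:**
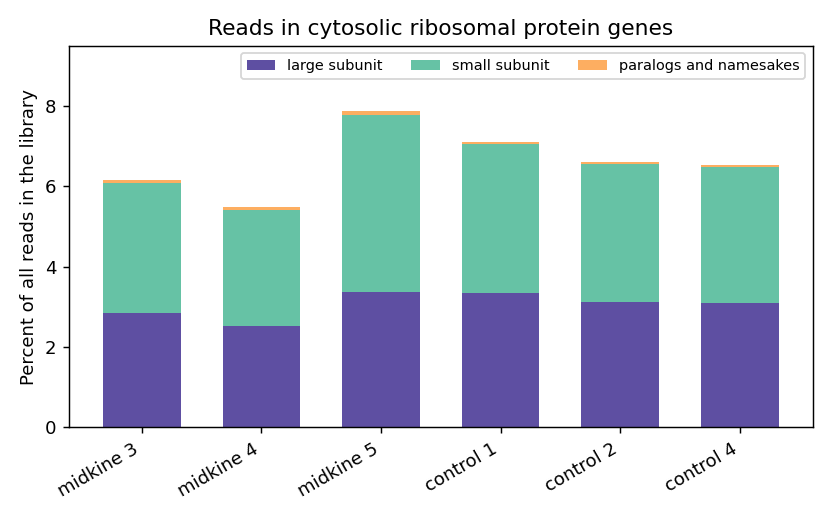
Percent of all reads of each library in ribosomal protein genes, stacked by large subunit (46 genes), small subunit (31 genes) and paralogs or namesakes (14 genes), for midkine 3, 4 and 5 at left and control 1, 2 and 4 at right. Midkine 3 and 4 reach 6.16% and 5.48% and midkine 5 reaches 7.87%, against 6.54% to 7.12% in the controls.

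Reads were spread unevenly over the genes. The 8 genes with the highest mean held 32.6%, 30.6% and 30.9% of all ribosomal protein reads in midkine 3, 4 and 5, against 33.0%, 32.4% and 33.5% in the controls. They were Rpl27a, Rps9, Rps14, Rps20, Rps12, Rps4x, Rps29 and Rps25. Rps9, a small subunit protein at the mRNA entry, had 22069.9, 19148 and 28351 normalized counts in midkine 3, 4 and 5, against 23542, 22971 and 19943 in control 1, 2 and 4. Rps29, a zinc-binding small subunit protein, varied least of these 8, with 10814.5, 10951 and 10666 in midkine 3, 4 and 5, against 11071, 11144 and 10883 in the controls. The lowest genes that passed the filter were Rpl6l, annotated as a processed pseudogene, and the paralogs Rpl3l and Rpl39l. Each had 4.10 to 19.1 normalized counts in any library. Among the 77 proteins of both subunits the lowest was Rpl10, with 275, 323 and 525 normalized counts in midkine 3, 4 and 5, against 257, 319 and 248 in the controls. All 50-base windows (100%) of its transcript's last 300 bases also occur in transcripts of 13 other symbols, so its level is uncertain.

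Whether ribosomal protein genes differed between midkine and control cells across all 6 libraries depended on how the libraries were weighted. With equal weights, no such gene passed the threshold. The limma test with Benjamini-Hochberg adjustment over the 13543 genes tested called 0 of 89, and 0.0% of all genes in either direction. At an unadjusted p under 0.05, limma gave 10 genes lower with midkine (11.2%, against 9.30% of all genes) and 1 higher (1.12%, against 10.4% of all genes). edgeR on the recovered reads called 0 of the 89 and 4 lower and 6 higher among all genes (0.0295% and 0.0443%). DESeq2 also called 0 of the 89, and 226 lower and 452 higher among 12148 genes (1.86% and 3.72%). limma with array weights, which weights each library by its fit, called 35 of the 89 lower (39.3%, against 18.4% of all genes) and 4 higher (4.49%, against 19.1%). Its estimates lay close to midkine 4. The median over the 89 genes was -0.21, against -0.12, -0.22 and 0.22 in midkine 3, 4 and 5. For Rps20 the estimate was -0.79, against -0.24, -0.84 and -0.46 in these libraries. These calls may thus rest largely on 1 midkine library. With equal weights, the median log2 fold change, midkine minus control, was -0.05 over the 89 genes and -0.00 over all genes, with 50 below 0 and 39 above, and single genes ran from -0.76 to 0.71. It was -0.14 for the large subunit, 0.05 for the small subunit and 0.00 for the paralogs and namesakes. The median depended on scaling and libraries, being -0.22 after quantile normalization and 0.03 without midkine 4.

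Without midkine 5, with 2 midkine against 3 control libraries, limma called 12 ribosomal protein mRNAs lower with midkine and none higher. These were 12 of 89 lower (13.5%, against 8.52% of all genes) and 0 higher (against 9.92% of all genes). edgeR called the same 12 lower (against 7.97% of all genes) and Rps2 higher (against 10.5%). The 12 were Rpl41, Rplp2, Rpl8, Rpl7, Rps19, Rpl14, Rps20, Rpl26, Rpl29, Rps4x, Rplp0 and Rpl27a. The median log2 fold change of the 89 genes was then -0.18, with 71 below 0 and 18 above, against -0.00 over all genes. The large subunit had a median of -0.22, with 40 of 46 below 0 and 9 called. The small subunit had a median of -0.11, with 24 of 31 below 0 and 3 called.

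The libraries did not move alike. The median of the 89 genes on the log2(normalized count + 1) scale, relative to the control mean, was -0.12 in midkine 3, -0.22 in midkine 4 and 0.22 in midkine 5, against 0.05, -0.02 and -0.04 in control 1, 2 and 4. Of the 77 proteins of both subunits, 73 lay below the control mean in midkine 3, 59 in midkine 4 and 26 in midkine 5. The spread over these 77 also differed, with an SD of 0.09, 0.26 and 0.72 in midkine 3, 4 and 5, against 0.05, 0.09 and 0.10 in the controls, which are themselves part of the mean. All genes with a mean of at least 500 spread by 0.30, 0.42 and 0.84 in midkine 3, 4 and 5, against 0.08, 0.12 and 0.11 in the controls. Midkine 5 therefore had the widest spread both among ribosomal protein genes and among all genes of high level.

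**Figure D2:**
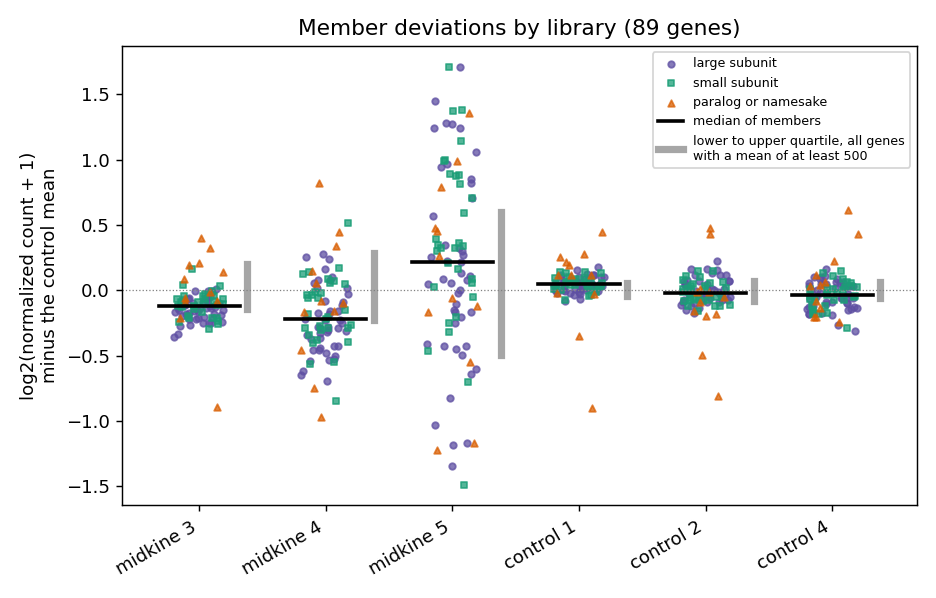
Each point is 1 of the 89 ribosomal protein genes in 1 library, as log2(normalized count + 1) minus the control mean, with midkine libraries at left and controls at right. Black lines are the medians (-0.12, -0.22 and 0.22 in midkine 3, 4 and 5), and grey bars span the lower to the upper quartile of all genes with a mean of at least 500.

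Marker genes of other cell types moved with the groups, and their part in the ribosomal protein results was not tested. Conventional dendritic cell markers, such as Flt3 and Zbtb46, were below every control in all 3 midkine libraries for 6 of 9 genes (15.3% of all genes were), with summed normalized counts of 11347 to 15859.8 in midkine against 16621 to 18705 in control libraries. Monocyte and macrophage markers, such as Csf1r and C1qa, were above every control for 6 of 9 (15.5% of all genes were), summing to 57737 to 95780.2 against 41590.0 to 43496. Neutrophil markers such as S100a8 were above for 7 of 9, summing to 176015 to 187812 against 123085 to 136838. Proliferation genes such as Mki67 were below every control for 6 of 13, summing to 14059.8 to 15628 against 21745 to 22838. They did not all move alike, since 5 of the 13 lay above the control mean in midkine 5 and 8 below. Cdk1 had 1371 normalized counts there, against 401 to 495 in the controls. Mast cell, basophil and eosinophil markers had the largest median log2 fold change of these lists, 1.24, and 4 of the 7 tested lay above every control, summing to 1749 to 2707 in midkine against 964 to 1211 in control libraries. B cell markers lay above every control for 3 of 8, summing to 1404 to 2962 against 1340.31 to 1877. Without midkine 5, limma called 7 of 7 and 7 of 8 genes of these last lists higher (9.92% of all genes were). It also called 8 of 9 monocyte and macrophage and 6 of 9 neutrophil markers higher in that fit. Called lower were 9 of 13 proliferation genes, 5 of 9 conventional dendritic cell, 4 of 6 stromal, 3 of 8 progenitor and 1 of 6 plasmacytoid markers (8.52% of all genes were). Plasmacytoid dendritic cell, progenitor and stromal markers lay below every control for 2 of 6, 2 of 8 and 2 of 6 genes. Several defining genes of T cells, NK cells and erythroid cells (Cd3e, Cd3g, Ncr1, Klf1 and Alas2 among them) had no row. Of 8 erythroid markers 5 were tested, all with log2 fold changes above 0 (median 0.57, and 0.76 without midkine 5). Of these, 1 lay above every control and 1 was called higher without midkine 5, while 2 lay below the control mean in midkine 5. Their summed normalized counts were low, at 142 to 205 in midkine against 70.8 to 107 in control libraries. Of 7 T and NK cell markers 2 were tested, and neither was called.

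In all 3 midkine libraries, 16 ribosomal protein genes lay below every control (18.0% of 89, against 15.3% of all genes) and 1 lay above (1.12%, against 15.5% of all genes). Without midkine 5, 37 lay below (41.6%, against 23.8% of all genes) and 1 above (against 23.8%). The 16 were 11 large subunit proteins (Rpl3, Rpl7, Rpl14, Rpl15, Rpl21, Rpl26, Rpl27a, Rpl29, Rpl35, Rpl38 and Rpl41) and 5 small subunit proteins (among them Rps6, Rps13, Rps20 and Rps26). The gene above every control was Rps2.

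Rpl41 encodes the shortest ribosomal protein, a small basic helix at the joint of the subunits. The gene lies at chr10:128548114-128549305 on the minus strand. It had 6416, 5263 and 3187 normalized counts in midkine 3, 4 and 5, against 8294, 7708 and 8263 in control 1, 2 and 4. The groups did not overlap and midkine 5 was lowest. The means were 4955 ± 1636 in midkine and 8088 ± 330 in control libraries (SD, n = 3 each). The log2 fold change was -0.76 ± 0.25 (SE), with an adjusted p of 0.170 by limma, and without midkine 5 it was -0.48 ± 0.11 with an adjusted p of 0.0056.

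Rps20, a protein of the small subunit head, had 16854, 11072 and 14449 normalized counts in midkine 3, 4 and 5, against 21920.5, 19028 and 18853 in the controls. Its log2 fold change was -0.51 ± 0.20 (SE; adjusted p of 0.211 by limma) over 6 libraries and -0.54 ± 0.15 (adjusted p of 0.0167) without midkine 5. Here midkine 4, not midkine 5, was lowest. Rpl14, a large subunit surface protein, had 4610.2, 3289 and 3902 normalized counts in midkine 3, 4 and 5, against 5722, 5070.4 and 5218 in the controls. The log2 fold change of -0.45 ± 0.17 (adjusted p of 0.205 by limma) was the same size without midkine 5, at -0.45 ± 0.12 (adjusted p of 0.0166). Rpl27a, also known as uL15 and the gene with the most reads, had 23135, 18925 and 20699 against 28281, 25704 and 28764. For this gene the log2 fold change was -0.40 both with midkine 5 (adjusted p of 0.231 by limma) and without it (adjusted p of 0.0385). In these 3 genes midkine 5 lay between midkine 3 and midkine 4, unlike in Rpl41.

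Rpl7, Rpl26 and Rpl29 completed the genes that were called without midkine 5 and below every control in midkine 5 too. Rpl7 had 3465, 2993 and 3116 normalized counts in midkine 3, 4 and 5, against 4345, 4021 and 4191 in the controls. Rpl26, which sits beside the exit of the peptide tunnel, had 3092, 2498 and 2307 against 3692, 3777 and 3347. Rpl29 had 2195, 1734 and 1653 against 2666, 2467 and 2409. Their log2 fold changes ran from -0.46 to -0.39 over 6 libraries and from -0.38 to -0.36 without midkine 5.

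The other 5 of the 12, Rplp0, Rplp2, Rpl8, Rps19 and Rps4x, were below every control in midkine 3 and 4 and above the control mean in midkine 5. Rpl8, which lies near the peptidyl transferase centre, had 6715, 5079.65 and 9785 normalized counts in midkine 3, 4 and 5, against 8407, 7812 and 7688 in the controls. Rps4x, the X-linked form of the RPS4 protein, had 11041, 8786 and 16529 against 13776, 12010.3 and 13232. In both genes midkine 5 stood above the highest control and the other midkine libraries below the lowest. For these 5 genes the log2 fold change was -0.20 to -0.15 over 6 libraries and -0.45 to -0.34 without midkine 5, and for Rpl8, Rps19 and Rps4x it was above 0 without midkine 4.

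Rps2, which lines the entry of the mRNA channel, was the gene with all midkine libraries above the controls. It had 652, 833 and 1154 normalized counts in midkine 3, 4 and 5, against 624, 614 and 515 in control 1, 2 and 4. Midkine 3 was only slightly above control 1. The log2 fold change was 0.56 ± 0.22 (SE; adjusted p of 0.223 by limma), and without midkine 5 it was 0.34 ± 0.12, with an adjusted p of 0.0634 by limma and 0.0487 by edgeR. Most 50-base windows of its transcript's last 300 bases (79.3%) also occur in transcripts of other symbols, 51 of them in all, so reads of copies could be mixed in.

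**Figure D3:**
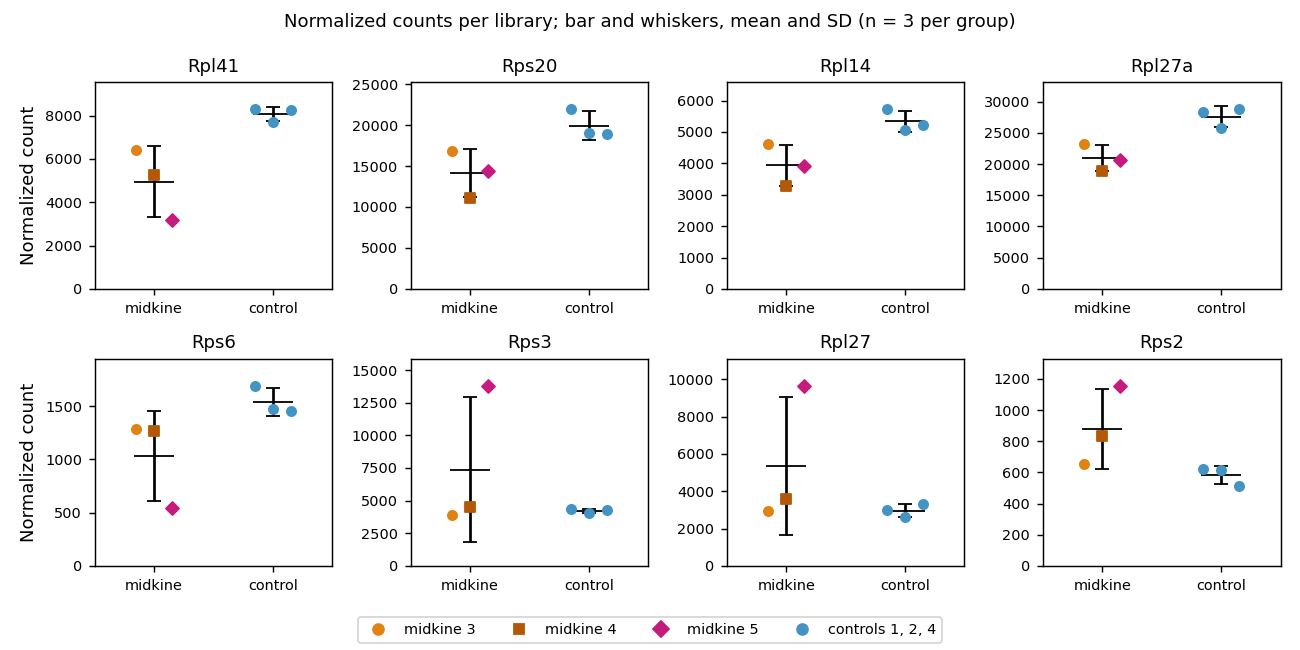
Normalized counts of 8 ribosomal protein genes in each library, with midkine at left and control at right in each panel; bars and whiskers give mean and SD (n = 3 per group). Rpl41, Rps20, Rpl14, Rpl27a and Rps6 have no overlap between groups, Rps2 lies above the controls in midkine, and Rps3 and Rpl27 lie far above all other libraries in midkine 5, at 13764 and 9632.

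In midkine 5, ribosomal protein mRNAs lay both above and below the control mean. More than 1.5-fold above the control mean lay 27 of the 89 genes (30.3%, against 25.2% of all genes), and more than 1.5-fold below it 11 (12.4%, against 25.0%). Among genes with a mean of at least 500 the counts were 24 of 80 above (25.8% of all such genes) and 9 of 80 below (21.6% of all such genes). More than 2-fold above lay 12 (13.5%, against 12.2%) and more than 2-fold below 7 (7.87%, against 13.4%). In midkine 3, 0 genes lay more than 1.5-fold above and 1 below (against 8.34% and 8.38% of all genes), and in midkine 4, 1 above and 6 below (against 12.1% and 12.4%). The share of genes high in midkine 5 was thus near that of all genes, and the share of low ones was smaller. Over genes with a mean of at least 500, the SD in midkine 5 was 0.70 for ribosomal protein genes and 0.84 for all genes.

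Rps3, at the mRNA entry site and also a DNA repair nuclease, and Rpl27, mutated in Diamond-Blackfan anaemia, stood highest relative to the control mean in midkine 5 among the proteins of both subunits. Rps3 (chr7:99477896-99483738, minus strand) had 3884, 4473 and 13764 normalized counts in midkine 3, 4 and 5, against 4345, 4058 and 4259.6 in control 1, 2 and 4. Rpl27 (chr11:101442298-101445529, plus strand) had 2925, 3574 and 9632, against 2969, 2607 and 3294. Both were 3.26 times the control mean in midkine 5, and their midkine 3 values were within or below the control range. The log2 fold change over 6 libraries was 0.56 ± 0.42 (SE) for Rps3, with an adjusted p of 0.476 by limma, and without midkine 5 it was -0.02. For Rpl27 it was 0.66 ± 0.40, with an adjusted p of 0.379, and 0.14 without midkine 5.

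Rps6 stood at the other end. It encodes the small subunit protein that S6 kinases phosphorylate downstream of mTORC1, and lies at chr4:86854660-86857412 on the minus strand. It had 1285, 1271 and 548 normalized counts in midkine 3, 4 and 5, against 1688, 1476 and 1458 in the controls. Midkine 5 was 0.356 times the control mean, and midkine 3 and 4 were also below the lowest control. Its log2 fold change was -0.67 ± 0.31 (SE; adjusted p of 0.279 by limma), and -0.27 ± 0.10 without midkine 5 (adjusted p of 0.0745). Rpl15 was also lowest in midkine 5, at 0.439 times the control mean, with a log2 fold change of -0.60 over 6 libraries and no overlap between the groups. For Rps6, 83.3% of the 50-base windows at the transcript's end also occur in transcripts of other symbols, for Rpl27 83.3% and for Rpl41 62.9%, while all windows of Rps3, Rps20, Rpl14 and Rpl27a are unique to the symbol.

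The first 2 of the following pairs join genes from the top and the bottom of the order in midkine 5, so the size of their ratios there follows from that choice and is given as a description. The ratio of Rps3 to Rps6 normalized counts was 3.02, 3.52 and 25.1 in midkine 3, 4 and 5, against 2.57, 2.75 and 2.92 in the controls. The ratio of Rpl27 to Rpl41 was 0.456, 0.679 and 3.02, against 0.358, 0.338 and 0.399. Rpl5 and Rpl11, which bind 5S rRNA together before joining the large subunit and together restrain Mdm2, kept a ratio of 0.329, 0.361 and 0.389, against 0.330, 0.374 and 0.336. These 2 were both high in midkine 5, at 2.73 and 2.43 times the control mean.

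**Figure D4:**
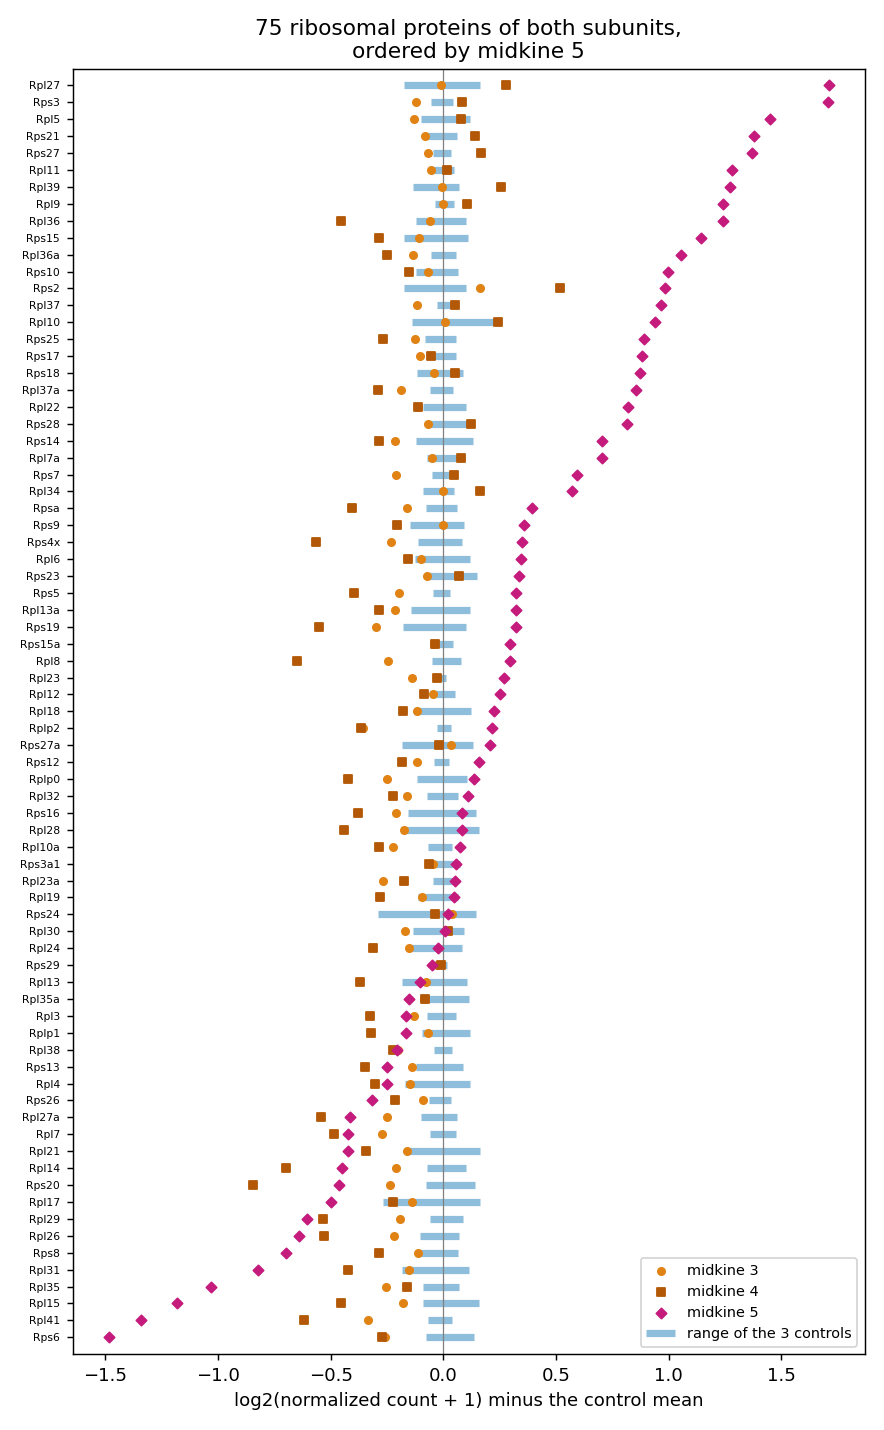
Of the 77 proteins of both subunits, 75 are drawn, ordered by midkine 5, as log2(normalized count + 1) minus the control mean; symbols are midkine 3, 4 and 5 and blue bars the range of the 3 controls. Midkine 5 runs from Rps6 (-1.49) to Rpl27 and Rps3 (both 1.71), while midkine 3 and 4 stay near or below the controls for most genes.

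Sorted by their place in the ribosome, the proteins of the stalk, which recruits elongation factors, summed to less in midkine 3 and 4 than in any control. Their summed normalized counts (Rplp0, Rplp1, Rplp2 and Rpl12) were 18928, 16766 and 21328 in midkine 3, 4 and 5, against 21968, 20432 and 20692 in the controls. Rplp2 had 2701, 2681 and 4017, against 3384, 3446 and 3532, and Rplp0 4092, 3627 and 5347, against 4914, 4486 and 5227. Both fell without midkine 5, with log2 fold changes of -0.36 and -0.34 and adjusted p of 0.0126 and 0.0312 by limma, while Rplp1 (-0.19) and Rpl12 (-0.07) did not pass. Over 6 libraries the median of the 4 was -0.17.

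Of the 8 proteins around the exit tunnel of the new peptide, 7 had log2 fold changes below 0 both with and without midkine 5, with medians of -0.26 and -0.21. Rpl26 was the one called without midkine 5. Rpl31 had 4707, 3897 and 2957 normalized counts in midkine 3, 4 and 5, against 5659.62, 5477 and 4603 in the controls, and was not called. The exception was Rpl39, a tiny protein of the tunnel wall, with 3673, 4402 and 8914 against 3862, 3873 and 3361.

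For the 6 proteins of the mRNA channel and decoding site the median log2 fold change was 0.27 over 6 libraries and -0.01 without midkine 5, with none called. The 2 proteins of the 5S particle had 0.44 and -0.02 in these fits. A chosen list of 16 genes mutated in Diamond-Blackfan anaemia, which may leave out others, had a median of 0.08, and of -0.08 without midkine 5. In that fit 12 were below 0 and 2 of the 16 were called lower, Rps19 and Rpl26, a share near the 8.52% of all genes. Rps19, the most often mutated of them, had 6148, 5163 and 9449.85 normalized counts in midkine 3, 4 and 5, against 7982, 8120.01 and 6681 in the controls. Its log2 fold change without midkine 5 was -0.43 ± 0.12 (SE; adjusted p of 0.0159 by limma).

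The class of paralogs, pseudogenes and namesakes was a small part of the reads, at 0.0638%, 0.0663% and 0.0866% in midkine 3, 4 and 5, against 0.0703%, 0.0635% and 0.0660% in the controls. Rps27l, a p53-induced form of Rps27, took 34.4%, 32.5% and 16.6% of the reads of the pair in midkine 3, 4 and 5, against 39.3%, 34.0% and 36.8% in the controls. The low share in midkine 5 came with more Rps27, at 4376 normalized counts against 1640.04 to 1729 in the controls, and 871 of Rps27l against 876 to 1063. Rpl22l1 took 16.9%, 20.7% and 12.8% of its pair with Rpl22, against 17.2%, 17.0% and 13.9%, and Rpl36al 29.0%, 32.8% and 27.4% of its pair with Rpl36a, against 28.1%, 28.9% and 28.0%. For Rps27 and Rpl36a, all windows at the transcript's end (100%) also occur in transcripts of other symbols, so reads of copies could alter these shares. The muscle form Rpl3l was at most 0.326% of its pair with Rpl3, and Rpl39l, a form of the testis, at most 0.467% of its pair with Rpl39. Rps4l, annotated as a transcribed processed pseudogene, had the highest log2 fold change of the 89 genes, 0.71 ± 0.33 (SE; adjusted p of 0.280 by limma). It had 51.2, 55.9 and 106 normalized counts in midkine 3, 4 and 5, against 31.8, 55.2 and 38.5, so that the groups overlapped. None of the 12 paralogs and namesakes tested was called in either fit.

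Ribosomal proteins with other symbols varied in the same range. Fau, which yields the small subunit protein eS30, had 7274, 5693 and 6523 normalized counts in midkine 3, 4 and 5, against 7545, 7395 and 6499 in the controls. Rack1, a scaffold on the small subunit head, had 7506, 8422 and 12928, against 8284, 7159 and 9298. Neither was called with or without midkine 5.

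The list of other TOP mRNAs held 20 genes, among them translation factors, nucleolar and chaperone proteins and host genes of small nucleolar RNAs. Their median log2 fold change was -0.12, with 16 below 0, over 6 libraries and -0.20, with 17 below 0 and 7 of the 20 called lower (8.52% of all genes were), without midkine 5. The 7 were the elongation factors Eef1b2, Eef1g and Eef2, the initiation factor Eif4b, the histone chaperone Nap1l1 and the non-coding Gas5 and Snhg1. Nap1l1 had 3365, 3178 and 2767 normalized counts in midkine 3, 4 and 5, against 4525, 4175 and 4433 in the controls. The log2 fold change was -0.50 ± 0.14 (SE; adjusted p of 0.139 by limma), and -0.42 without midkine 5 (adjusted p of 0.0058). In the same class Eef1a1 had 17811, 22263 and 41196, against 18223, 16689 and 15740.5, so that not all of these mRNAs were lower.

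Of 16 genes that control TOP mRNAs or transcription of ribosomal protein genes, 1 was called lower (Myc) and 1 higher (Eif4ebp2) without midkine 5, shares no larger than the 8.52% and 9.92% of all genes. Myc, a transcription factor that raises ribosomal protein genes, had 52.2, 53.8 and 42.7 normalized counts in midkine 3, 4 and 5, against 99.5, 101 and 68.1 in the controls. Its log2 fold change was -0.83 ± 0.23 (SE; adjusted p of 0.132 by limma), and -0.72 without midkine 5 (adjusted p of 0.0174). Eif4ebp2, a repressor of cap-dependent translation that mTORC1 inactivates, had 837, 1028 and 1135, against 680.02, 655 and 679.5. On the same scale its log2 fold change was 0.56 ± 0.16 (adjusted p of 0.133), and 0.47 without midkine 5 (adjusted p of 0.0060). Mtor was level, at 131, 112 and 133 normalized counts in midkine 3, 4 and 5, against 123, 126 and 124.

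The shift of the cytosolic ribosomal proteins without midkine 5 was set beside that of the mitochondrial ones, which are encoded in the nucleus and built into the ribosomes of mitochondria. The median log2 fold change without midkine 5 was -0.18 for the 89 cytosolic genes and -0.03 for the 77 Mrpl and Mrps genes, of which 42 lay below 0 and 35 above, with 2 called lower and 2 higher (8.52% and 9.92% of all genes were). Over 6 libraries it was -0.05 for the cytosolic and 0.05 for the mitochondrial genes. In all 3 midkine libraries, 16 of the 89 cytosolic genes lay below every control and 1 above, against 5 below and 15 above of the 77 mitochondrial genes. Of all genes, 15.3% lay below and 15.5% above, so that the share below of the cytosolic genes and the share above of the mitochondrial ones were near the background. The difference between these groups of genes was not tested.

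Reads of near-identical copies limit what can be said of single genes. All 91 genes matched a single gene of the GENCODE M21 annotation on GRCm38, on 19 chromosomes. In the last 300 bases of a representative transcript, every 50-base window was unique to the symbol in 21 of the 89 tested genes, over 50% of windows were shared with other symbols in 51, and all were shared in 8. Exons of another gene overlapped on the opposite strand for 20 genes and on the same strand for 28. The 21 unique genes had a median log2 fold change of -0.06, and -0.13 without midkine 5, beside -0.11 and -0.19 for the 51. The 115 -ps symbols held 0.0364%, 0.0314% and 0.0550% of reads in midkine 3, 4 and 5, against 0.0440%, 0.0405% and 0.0382% in the controls. Over the 89 genes, which share libraries and controls, the deviation in midkine 5 had Spearman correlations of -0.02 with GC content, -0.04 with the share of shared windows and -0.07 with the control level, and the deviations in midkine 3 and 4 had -0.33 and -0.35 with the control level.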

How the data were processed

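The deposited values are the authors' normalized counts, 1 row per gene symbol, treated here as a signal. Libraries were made with the QuantSeq 3′ FWD kit, per the labels' protocols, and were not scaled to gene length. Per the submitters' processing notes, HTSeq, DESeq2, TopHat2 2.0.10 and Bowtie 1.0.0 were used, with the build GRCm38. For strand setting, annotation and multiply mapped reads, nothing is given in the sources used here. All values (100%, tolerance 0.01) were whole reads divided by a size factor of 0.947 to 1.10.

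limma 3.58.1 (R 4.3.3, trend) was fitted to log2(normalized count + 1) for all 13543 genes with a mean of at least 5, with two-sided tests, and p-values were adjusted over all of them by Benjamini-Hochberg (threshold 0.05). On recovered reads, the alternatives were the quasi-likelihood test of edgeR 4.0.16 with TMM factors, and DESeq2 1.42.0. Scaling, pseudocount, filter, array weights and libraries were varied. The limma and edgeR fits were also run on simulated data in which no library stood apart. That run cannot show how they behave with a library such as midkine 5. Intervals cover counting error only. Members and lists were chosen with earlier results of these data known, and 2 of the comparisons without midkine 5 (shares and overlap) were added after the values were seen. Named were the highest and lowest genes by level and fold change, paralogs, stalk and 5S proteins and up to 4 genes per list, while other genes, the 5 promoters and the pairs were chosen after their values were seen. The paralog class of 5 genes was set by symbol after the table was read. A few genes counted in the totals are not reported here by name.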

Additional observations from a re-analysis of the deposited data

How the results depend on the processing

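Without midkine 5, 12 of 89 genes were called lower by limma and by edgeR, with 1 higher by edgeR, and limma with array weights called 35 lower (39.3%, against 18.4% of all genes) and 4 higher (4.49%, against 19.1%). The median with array weights lay close to that of midkine 4 alone. No other setting called any of the 89, and the count of genes lower ran from 0 to 12 and that of genes higher stayed at 0 as each library was left out of the limma fit. The median log2 fold change, -0.05, was -0.18 by edgeR without midkine 5, -0.21 with array weights, -0.22 after quantile normalization and -0.13 after scaling to reads without ribosomal protein and mitochondrial genes, and ran from -0.18 to 0.031 as each library was left out. The genes below every control numbered 34 after quantile normalization and 37 without midkine 5, in place of 16, and the share difference of -0.25 percentage points was -0.94 without midkine 5. The median in midkine 5, 0.22, was 0.14 scaled to all reads and 0.074 scaled without ribosomal protein and mitochondrial genes, and that in midkine 4, -0.22, was -0.28 in this last scaling. Among genes with a mean of at least 100, the SD over genes was 0.10, 0.26 and 0.71 in midkine 3, 4 and 5, in place of 0.15, 0.30 and 0.72 over all 89.

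Of 646 log2 fold changes of the 34 genes traced under other settings, 570 kept direction and side of the threshold, 60 passed it and 16 changed sign, and the cause was not tested. By edgeR without midkine 5 these were Rps3 (-0.0077), Rpl12 (-0.060), Rpl5 (-0.019), Rpl11 (-0.013) and Rack1 (-0.044). Rpl12 also turned with array weights (-0.085), quantile normalization (-0.096) and scaling without ribosomal protein and mitochondrial genes (-0.038). As each library was left out, the log2 fold change ran from -0.018 to 0.89 for Rps3, -0.40 to 0.057 for Rps4x, -0.43 to 0.011 for Rps19, -0.45 to 0.026 for Rpl8, -0.067 to 0.10 for Rpl12, -0.026 to 0.76 for Rpl5, -0.020 to 0.65 for Rpl11 and -0.045 to 0.35 for Rack1. No paired analysis was possible because the labels of the 2 groups share only replicate number 4.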
